A study of Mus musculus with 116 samples.

Results

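When a zinc-finger nuclease (ZFN, a designed DNA-binding protein fused to a cutting domain) breaks a chromosome, a rejoining that first loses sequence on the far side of the break leaves a deletion. Such deletions of 11 bp to 100 kb are described here at the ZFN target that the labels call Eb, in mouse pro-B cells. A junction was counted when its prey, the sequence joined to the primed (bait) side, lay on chromosome 6 in the orientation of a rejoined chromosome and started 11 to 100000 bases beyond the prey start of a precise join (chr6:41554988-41654977, build mm10). This rule took 46424 of the 125900 junctions in 18 ZFN libraries, and the whole series lists 2482573 junctions. A further 66793 ZFN junctions started within 10 bp of the break. At the lower bound, 5423 junctions lost 11 prey bases and 3472 lost 12, and just outside it 5084 lost 10 and 6334 lost 9.

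All 18 libraries came from mouse pro-B cell lines (early precursors of B cells) transformed with the v-Abl kinase oncogene and carrying an Emu-Bcl2 transgene. The cells were arrested in G1, for which the labels give STI-571, an Abl kinase inhibitor, at 3 µM for 96 h, and the ZFN was induced with doxycycline at 2 µg/ml. There were 6 groups of 3 libraries: Lig4-/- (clone D), Lig4-/- with Lig4 added back (clone D, +Lig4), Lig4-/- Ku70-/- (clones D1 and D2), and each of these last clones with Ku70 added back (+Ku70). The ZFN libraries used here include no wild-type cells. How the clones were derived, how the genes were added back and whether replicates were separate cultures are not given in the sources used here, so p-values measure only the spread between these libraries, which may be technical. Levels of Ku70 and Lig4 were not measured here and the genotypes rest on the labels.

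Classical non-homologous end joining begins when the Ku heterodimer, of Ku70 and Ku80, binds a broken end and shields it, and ends when ligase IV (Lig4) seals the strands. Ends that are not sealed this way can be joined by other routes, often grouped as alternative end joining, after nucleases have exposed single-stranded tails. These routes frequently pair short stretches of identical sequence, called microhomology, so that 1 copy is kept and the other is lost with what lies between. The break lies in the T cell receptor beta locus, which has its enhancer between the constant gene Trbc2 and the variable segment Trbv31.

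The sequence around the break shows which joints are possible. It covers chr6:41554912-41555061 (mm10, plus strand), was read as the most frequent base of the deposited reads at each position (the lowest share of reads at any position was 99.5%), and has the bait side in lower case and the prey side in capitals.
Eb break window: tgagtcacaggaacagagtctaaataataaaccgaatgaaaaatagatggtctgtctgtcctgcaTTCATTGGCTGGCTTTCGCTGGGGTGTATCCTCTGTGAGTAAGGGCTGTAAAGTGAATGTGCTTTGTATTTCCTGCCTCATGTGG

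The joints that the groups used most are given next, each as 20 bait bases, the bases that bait and prey share in capitals, and 20 prey bases. Names give the bases lost from the bait end, the bases lost from the prey end, and the bases shared. Shared bases lie in both alignments, so the losses are minimum values and the full deletion is their sum plus the shared bases. The first 3 lines were the most frequent pairs of ends in Lig4-/- libraries.
bait 3 prey 28 shared 4: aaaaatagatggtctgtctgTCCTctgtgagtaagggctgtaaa
bait 7 prey 18 shared 3: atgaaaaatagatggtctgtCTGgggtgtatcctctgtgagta
bait 8 prey 12 shared 2: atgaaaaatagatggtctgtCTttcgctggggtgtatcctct
Those that led in Lig4-/- Ku70-/- clones D1 and D2 shared at most 2 bases.
bait 15 prey 27 shared 0: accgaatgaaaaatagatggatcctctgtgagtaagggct
bait 26 prey 27 shared 1: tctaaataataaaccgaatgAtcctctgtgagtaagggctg
bait 7 prey 11 shared 1: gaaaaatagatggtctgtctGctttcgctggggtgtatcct
bait 1 prey 11 shared 2: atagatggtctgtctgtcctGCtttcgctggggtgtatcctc
The last of these also led in +Lig4, where the next pairs kept every bait base and often carried inserted bases. They are shown in their form without an insertion.
bait 0 prey 17 shared 0: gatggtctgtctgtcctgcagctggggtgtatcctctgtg
bait 0 prey 13 shared 0: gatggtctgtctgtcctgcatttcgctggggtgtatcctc
The pair of 15 bait and 19 prey bases led in D1 +Ku70 by mean share only (2.370% against 2.363% for the pair of 26 and 27, which led in 2 of its 3 libraries), and the other pairs below were the only ones found in all 18 libraries. The pair of 3 bait and 12 prey bases had 2 main forms.
bait 15 prey 19 shared 3: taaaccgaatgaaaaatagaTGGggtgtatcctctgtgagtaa
bait 3 prey 12 shared 2: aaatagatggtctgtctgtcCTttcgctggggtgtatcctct
bait 3 prey 12 shared 0: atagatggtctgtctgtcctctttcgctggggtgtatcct
bait 11 prey 18 shared 3: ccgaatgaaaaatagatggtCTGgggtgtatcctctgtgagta

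Some features of the libraries touch all results. Per the labels, 600000 raw reads of each library were used. The Lig4-/- and +Lig4 libraries shared 1 sequencing run, as their read names show, and D1 and D1 +Ku70 shared another. Clone D2 libraries with and without Ku70 were spread over 2 further runs. Replicate 1 of each was in 1 run and replicates 2 and 3 of each were in the other. No run held both Lig4-/- Ku70-/- and Lig4-/- libraries, so for those comparisons genotype and run cannot be told apart. The D2 +Ku70 replicates 2 and 3 held only 39 and 12 deletions, against 171 to 9050 in the other 16 libraries; in those 16 the 95% Wilson interval of the microhomology share reached at most 6.34 points below and 5.08 points above it. No molecular identifier is described in the sources used here, and such intervals cover counting error only. Distinct fragments made up 80.1% to 97.4% of the deletions in each library. In Lig4-/-, 6 joints over 1 kb were found in all 3 libraries, so the number, share and microhomology of deletions over 1 kb are given with and without joints seen in more than 1 library.

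Deletions were by far most numerous without Ku70. In replicates 1 to 3 there were 28.5, 51.8 and 47.3 deletions per 100000 raw reads in Lig4-/- and 112, 107 and 90.7 in +Lig4. Lig4-/- Ku70-/- libraries held 1508, 1378 and 1444 in clone D1 and 1004, 1314 and 357 in clone D2. With Ku70 added back, D1 held 91.2, 63.8 and 59.2, and D2 held 71.2, 6.5 and 2. Every library of the Ku70-deficient clones thus lay above every other library, and D1 +Ku70 overlapped neither D1 nor Lig4-/-. The excess over Lig4-/- was not particular to this class. Junctions of all kinds numbered 56.5, 110 and 111 per 100000 raw reads in Lig4-/-. They numbered 2876, 2812 and 2874 in D1 and 2863, 2710 and 1027 in D2.

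On the log2 scale, with 0.5 added to each number of deletions, Lig4-/- Ku70-/- exceeded Lig4-/- by 5.13 in clone D1 and 4.24 in clone D2 (exact permutation p = 0.1 in each, adjusted 0.136). A comparison of 3 against 3 libraries cannot give a p below 0.1. The comparison of clones with and without added Ku70, stratified by clone, can reach 0.005. The log2 difference of +Ku70 from the same clones without it was -5.33 on average (exact permutation p = 0.005, adjusted 0.0817), with -4.36 in D1 and -6.29 in D2, and all 6 +Ku70 libraries lay below all libraries of their clone. Within D2 it was -3.82 in the run of replicate 1 and -7.53 in the run of replicates 2 and 3. Without the 2 small D2 +Ku70 libraries the difference was -3.91 (exact permutation p = 0.0125). The family held 49 two-sided tests, of 7 measures in 7 comparisons; 4 had a raw p below 0.05 and 0 after Benjamini-Hochberg adjustment, so the differences below are given as sizes with their spread.

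As a share of all junctions, deletions of this class stood apart in +Lig4. They made up 50.4%, 47.1% and 42.7% of junctions in Lig4-/-, 52.5%, 49.0% and 50.2% in D1, and 35.1%, 48.5% and 34.7% in D2. The mean difference from Lig4-/- was 3.81 points in D1 and -7.32 points in D2 (exact permutation p = 0.3 in each), with overlapping ranges. In +Lig4 the share was 6.94%, 7.08% and 6.14%, a mean difference of -40 points from Lig4-/- (exact permutation p = 0.1, adjusted 0.136). The libraries with added Lig4 thus held more deletions of 11 bp or longer per raw read than Lig4-/-, as a far smaller share of all their joins. The log2 difference in number was 1.32 (exact permutation p = 0.1), and 0.18 (exact permutation p = 0.7) when only deletions of 31 bp or longer were counted. With Ku70 added back the shares were 45.3%, 38.8% and 42.3% in D1 and 19.4%, 19.9% and 7.45% in D2, a mean difference of -16.1 points from the same clones without it (exact permutation p = 0.005, adjusted 0.0817). When only deletions of 31 bp or longer were counted this difference was 0.147 points (exact permutation p = 0.91).

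The differences in number were not the same in every length class. Deletions of 11 to 30 bp averaged 26.3 ± 6.71 per 100000 raw reads (SD, n = 3 here and below) in Lig4-/-, 85.4 ± 7.04 in +Lig4, 1167 ± 47.9 in D1 and 751 ± 398 in D2. The means of D1 and D2 were 44.4 and 28.6 times that of Lig4-/-. For 31 to 100 bp they were 61.1 and 30.9 times as high, at 268 ± 16.1 and 136 ± 92.6 against 4.39 ± 2.27. No such excess of the Ku70-deficient clones was seen among longer deletions.

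For deletions over 100 and up to 1000 bp the ranges overlapped, with 6.22 ± 2.71 in Lig4-/-, 3.89 ± 0.770 in +Lig4, 7.56 ± 1.75 in D1 and 4.94 ± 3.19 in D2. Over 1 kb the order was turned around. Lig4-/- libraries held 25, 52 and 25 such deletions, +Lig4 9, 11 and 6, D1 10, 2 and 1, and D2 0, 4 and 0. The Lig4-/- mean of 5.67 ± 2.60 per 100000 raw reads was 3.92 times that of +Lig4 and 7.85 times that of D1, and all 3 Lig4-/- libraries lay above all libraries of the other 5 groups. The log2 difference for deletions over 1 kb was -1.86 for +Lig4 against Lig4-/- and -3.25 for D1 against Lig4-/-, both with an exact permutation p of 0.1. For D2, 2 of the 3 libraries held none, so a log2 difference would rest on the 0.5 added and none is read from it here; 0 of 6025 and 0 of 2140 deletions allow shares of up to 0.0498% and 0.14%.

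**Figure D1:**
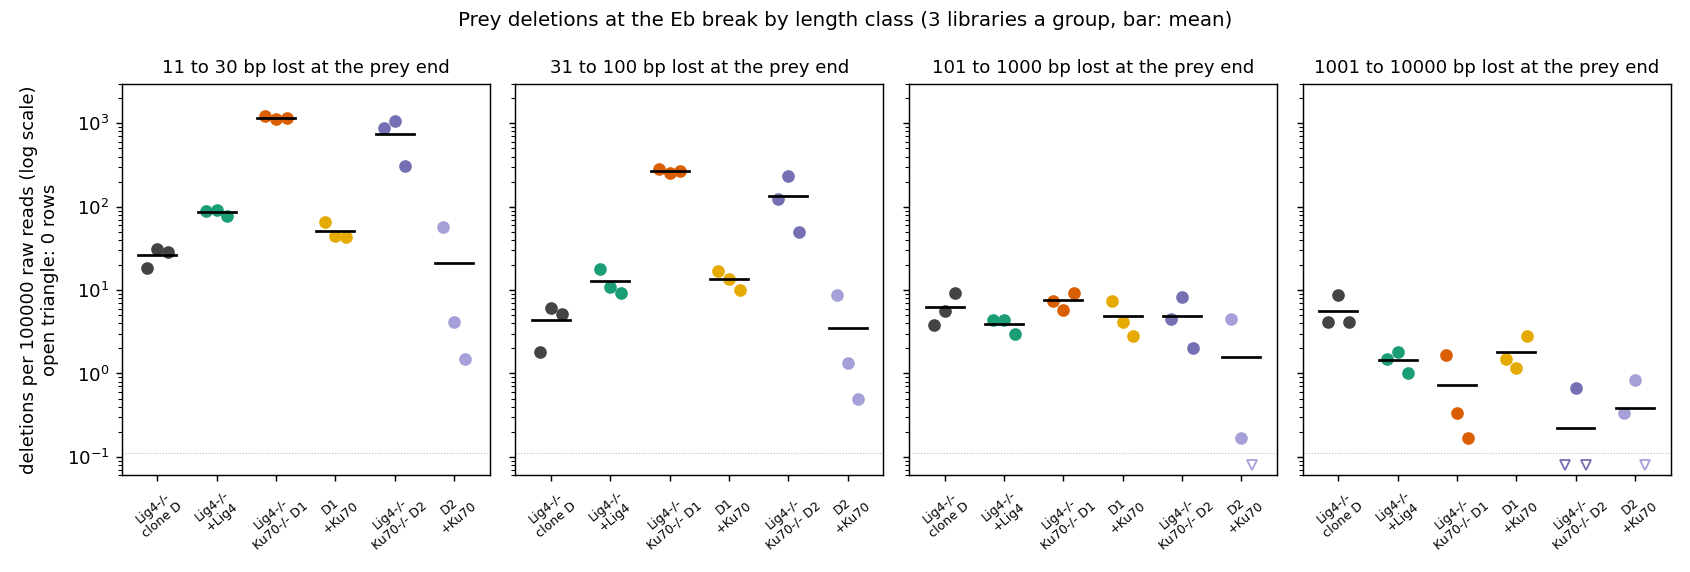
Deletions per 100000 raw reads (log axis) in each library, by the number of prey bases lost; points are libraries, bars are group means and open triangles mark libraries with 0. The Lig4-/- Ku70-/- clones lie highest below 100 bp (D1 mean 1167 against 26.3 in Lig4-/- at 11 to 30 bp), and Lig4-/- lies highest over 1 kb (5.67 against 0.722 in D1).

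As a percent of deletions, those over 1 kb were 14.6%, 16.7% and 8.80% in Lig4-/-, 1.34%, 1.71% and 1.10% in +Lig4, and at most 0.11% in each D1 and D2 library. With Ku70 added back the share was 1.65%, 1.83% and 4.79% in D1 and 0.468%, 12.8% and 0% in D2. The mean difference was 3.56 points (exact permutation p = 0.02, adjusted 0.136). In D1 every +Ku70 library lay above every library without it, while the D2 groups overlapped and the D2 mean rested on replicate 2, where 5 of 39 deletions were over 1 kb. Without D2 +Ku70 replicate 2 the difference was 1.46 points (exact permutation p = 0.02). It had an exact permutation p of 0.155 when any one of the D2 libraries without Ku70 was left out. Per 100000 raw reads, deletions over 1 kb numbered 1.83 ± 0.882 in D1 +Ku70 against 0.722 ± 0.822 in D1, and the ranges overlapped.

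The 185 deletions over 1 kb came from 155 distinct joints, of which 144 were found in 1 library. The longest lost 9561 prey bases, in D1 +Ku70, and 0 lay between 10 and 100 kb. In Lig4-/- 6 of the 77 joints over 1 kb were found in all 3 libraries and together made up 30 of its 102 such deletions; no joint over 1 kb was in all 3 libraries of any other group. The most frequent lost 1039 prey bases and was read 14 times, from 6 different fragment ends, and another lost 4291 prey bases and was read once in each Lig4-/- library. Whether these libraries share cells or molecules was not tested; they shared no read name. Without all joints found in more than 1 library, a setting chosen after these were seen, Lig4-/- held 8, 42 and 17 deletions over 1 kb, or 3.72 ± 2.94 per 100000 raw reads, against 1.28 ± 0.347 in +Lig4 and 0.667 ± 0.727 in D1. Its range of 1.33 to 7 then overlapped that of +Lig4, 1 to 1.67, and that of D1, 0.167 to 1.5. The log2 differences were then -1.21 for +Lig4 and -2.49 for D1 against Lig4-/-, each with an exact permutation p of 0.2. As a percent of the deletions then left, those over 1 kb were 5.19%, 14.0% and 6.16% in Lig4-/-, 1.04% to 1.56% in +Lig4 and at most 0.0995% in each D1 and D2 library, still without overlap. These joints are shown because they recurred; capitals mark the shared bases, and the prey starts are chr6:41556016, chr6:41559268 and chr6:41556820.
bait 7 prey 1039 shared 2: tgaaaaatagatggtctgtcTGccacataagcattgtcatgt
bait 19 prey 4291 shared 2: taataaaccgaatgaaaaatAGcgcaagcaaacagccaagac
bait 6 prey 1843 shared 7: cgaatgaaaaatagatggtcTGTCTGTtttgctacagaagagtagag
The last joins repeats of 7 bases and was found in 2 +Lig4 libraries and 1 Lig4-/- library.

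Median prey loss was 28, 27 and 28 bp in Lig4-/-, 18, 17 and 18 bp in +Lig4, 25 bp in each D1 library and 22, 25 and 22 bp in D2. D1 +Ku70 had 25, 27 and 25 bp and D2 +Ku70 21, 21 and 14.5 bp. The Lig4-/- median was set by 1 joint, since without each library's most frequent pair of ends the log2 difference of D1 from Lig4-/- turned from -0.15 to 0.24. The upper quartile separated the groups further, at 248, 199 and 155 bp in Lig4-/- against 26, 23 and 22.3 bp in +Lig4 and 29 bp in each D1 library. Adding the bait loss and the shared bases, the median deletion removed 35, 36 and 35 bp in Lig4-/-, 23 bp in each +Lig4 library and 42 bp in each D1 library. It removed 34, 42 and 36 bp in D2.

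The prey ends lay at a few preferred bases, and these differed between genotypes. In Lig4-/- 13.8% ± 5.95 (SD, n = 3) of deletions started 28 bases beyond the break, against at most 2.38% in any library of the other groups. The neighbouring base, 27 bases beyond the break, held 17.1% of deletions in D1 (16.9% to 17.2%), 15.0% in D2 (12.9% to 17.9%) and 12.6% in D1 +Ku70 (9.32% to 14.4%). That base held 0.419% in Lig4-/- and 1.75% in +Lig4. In +Lig4 no single base stood out: the highest share was 9.57%, at 12 bases, and 7.75% started at 17 bases.

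The bait ends had peaks too. In Lig4-/- a loss of 3 bases led with 18.3% (14.5% to 24%) and a loss of 7 bases followed with 11.8% (5.47% to 15.8%). These were not separate from the prey ends. The pair of 3 bait and 28 prey bases alone held a mean of 13.2% of Lig4-/- deletions. The Lig4-/- peaks at 3 bait and 28 prey bases are thus largely 1 joint. The pair of 7 bait and 18 prey bases held 5.94%. In D1 the pair of 15 bait and 27 prey bases held 3.57%. In D1 and D2 a loss of 15 bases led, with 12.8% (12.7% to 13%) and 11.3% (10.3% to 12.7%), and a loss of 27 bases held 8.52% and 6.51%. In +Lig4 the bait end was most often whole: 25.7%, 28.6% and 32% of deletions had lost no bait base, against 3.17% to 4.68% in Lig4-/- and 1.38% to 4.1% in D1 and D2. The loss of at least 11 prey bases is set by the rule for every deletion here, while bait loss was not selected. Joins that lost fewer prey bases were left out whatever their bait loss. The losses on the bait and prey sides therefore cannot be weighed against each other in this class.

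**Figure D2:**
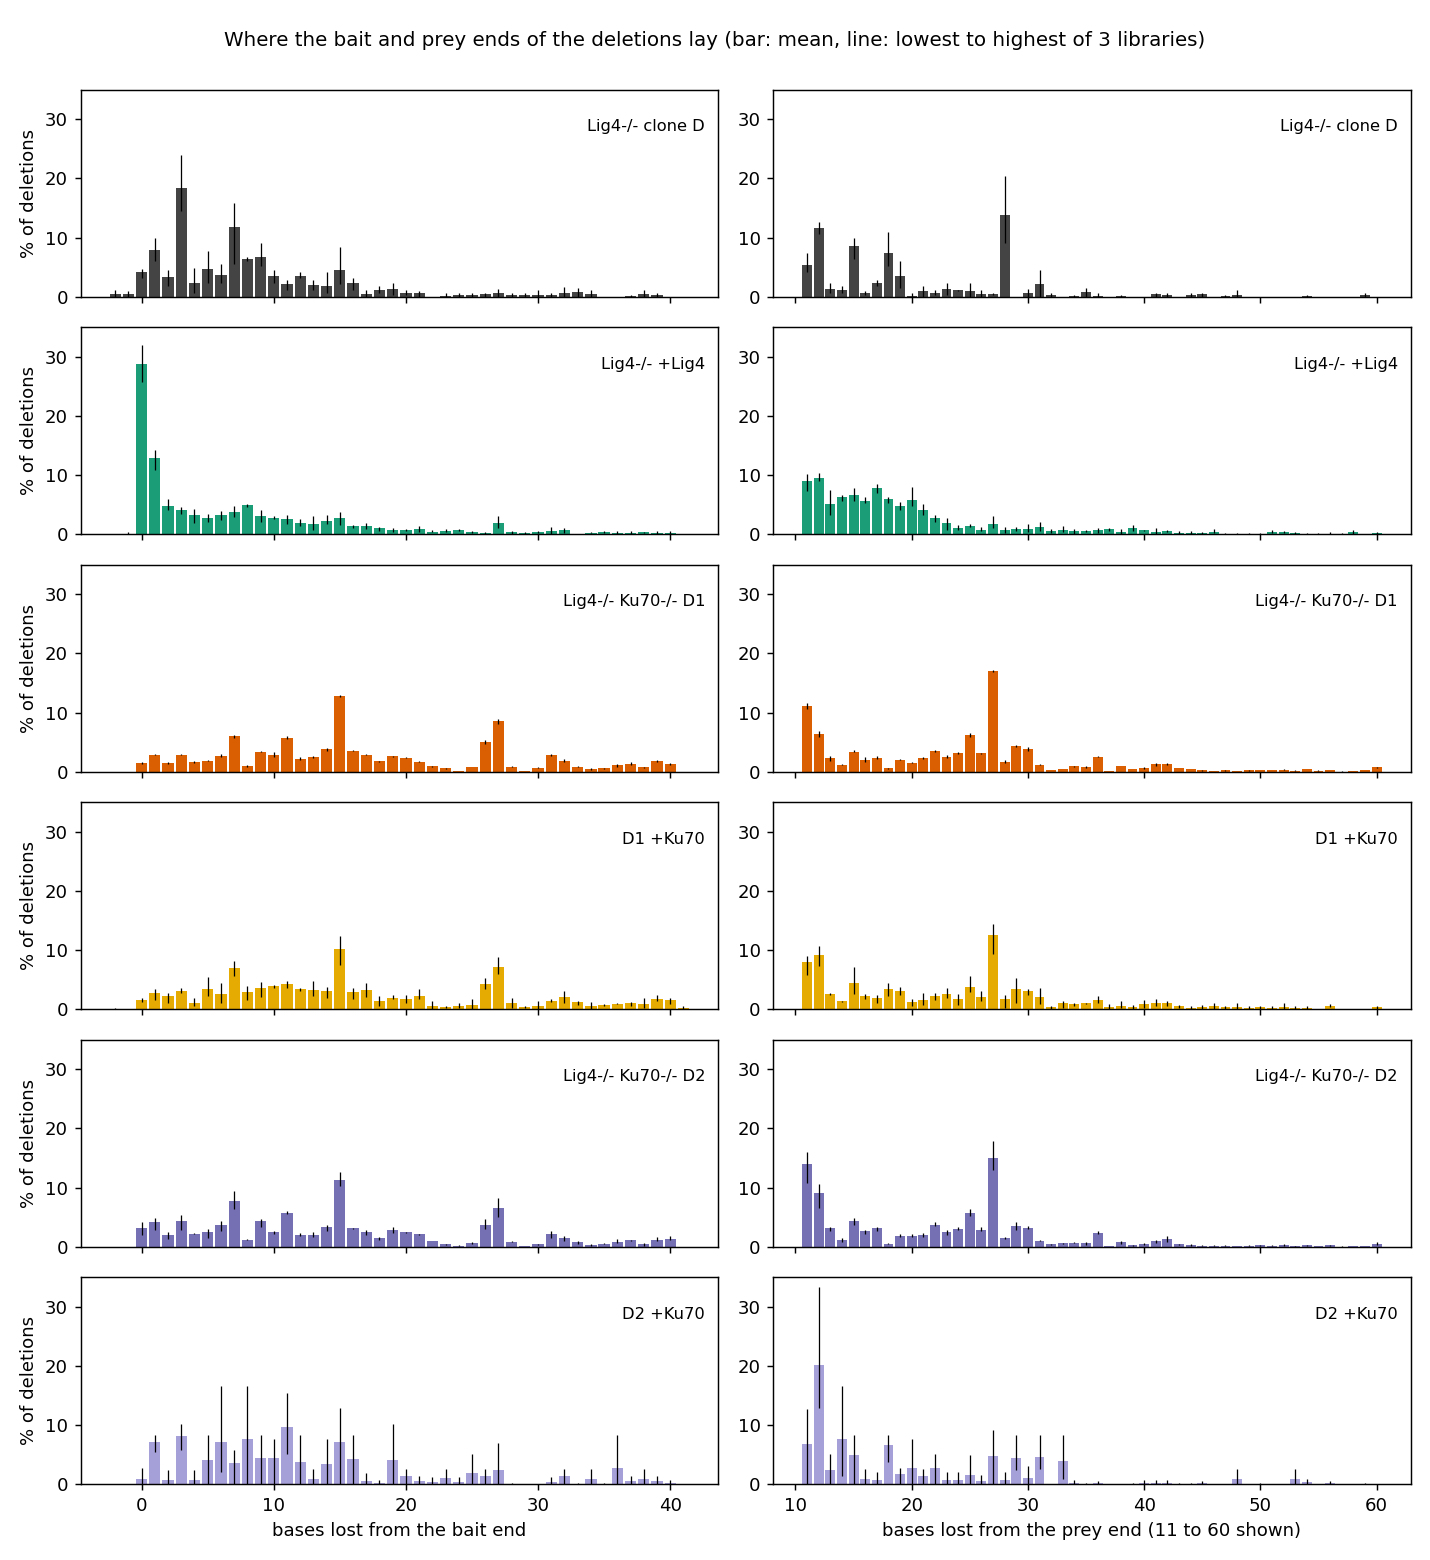
Percent of deletions at each number of bases lost from the bait end (left) and the prey end (right, 11 to 60 bases) in each group; bars are means and lines run from the lowest to the highest of 3 libraries. Peaks at 15 bait bases and 27 prey bases recur in D1, D1 +Ku70 and D2, a peak at 28 prey bases is seen in Lig4-/-, and 0 bait bases leads in +Lig4.

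At least 1 bait base was lost in 94.2%, 93.9% and 96.1% of deletions in Lig4-/-, 73.7%, 70.5% and 67.6% in +Lig4, 98.3% to 98.6% in D1 and 95.9% to 98% in D2. The difference of +Lig4 from Lig4-/- was -24.1 points (exact permutation p = 0.1, adjusted 0.136). With Ku70 added back the share stayed between 97.2% and 100% in all 6 libraries, and the mean difference was 0.898 points (exact permutation p = 0.255). Median bait loss was 7 bases in each Lig4-/- library, 4, 3 and 3 in +Lig4, 15 in each D1 library and 12, 15 and 14 in D2. Bait alignments began at chr6:41554912 and the largest loss seen was 41 bases, so the bait side is measured only over this short range.

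The 12 pairs of ends that led in a group, or were found in all 18 libraries, behaved in contrasting ways. The joint through TCCT, losing 3 bait and 28 prey bases, led all Lig4-/- libraries. It made up 19.3%, 8.68% and 11.3% of Lig4-/- deletions, but 0.594%, 0.466% and 0% in +Lig4 and 0.298%, 0.242% and 0.173% in D1. In number the gap was far smaller: this joint was read 33, 27 and 32 times in Lig4-/-, 27, 20 and 15 times in D1, and 29, 19 and 5 times in D2, all from the same number of raw reads. It was read 0, 2 and 0 times in D1 +Ku70, 1, 0 and 0 times in D2 +Ku70, and 4, 3 and 0 times in +Lig4. Its share thus set Lig4-/- far apart, while its number in Lig4-/- and in D1 and D2 overlapped or nearly so.

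The pair of 7 bait and 18 prey bases, joined mostly through CTG, was read 7, 12 and 28 times in Lig4-/- (4.09%, 3.86% and 9.86% of deletions). In D1 it was read 12, 8 and 12 times, or 0.0968% to 0.138% of deletions. The pair of 8 bait and 12 prey bases, joined mostly through CT, was steady among Lig4-/- libraries at 4.68%, 4.82% and 4.93%, and among +Lig4 libraries at 2.52%, 2.48% and 2.57%. In D1 it made up 0.486% to 0.605%. In number it was read 8, 15 and 14 times in Lig4-/-, 44, 50 and 43 times in D1 and 55, 43 and 13 times in D2. Its share was thus lower in D1 while its number was higher. These 3 pairs, all joined mostly through shared bases, were the leading pairs of Lig4-/- and each had a lower share in every library of D1 and D2.

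By share, the reverse held for the joints most frequent in D1. The pair of 15 bait and 27 prey bases, in nearly every read a direct joint that shares no base, was read 330, 300 and 298 times in D1 and 175, 279 and 56 times in D2, or 3.44% to 3.65% and 2.62% to 3.54% of deletions. It was read 0 times in each Lig4-/- library and 0, 0 and 1 times in +Lig4. The pair of 26 bait and 27 prey bases, through a single shared A, was read 283, 280 and 323 times in D1 and in no Lig4-/- or +Lig4 library. Over the 766 Lig4-/- deletions, 0 reads allow a share of up to 0.392%.

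In D1 +Ku70 these same joints were still among the leading ones, with 6, 9 and 11 reads of the pair 15 and 27 (1.10%, 2.35% and 3.10%) and 6, 10 and 12 of the pair 26 and 27. D1 and D1 +Ku70 shared a sequencing run. Of the distinct fragments of a D1 +Ku70 library, 16.2% to 23.4% were also in a given D1 library and 4.66% to 15.1% in a given D2 library of other runs, while the D1 replicates shared 18.3% to 19.8% with each other. Whether reads passed between libraries of the run was not tested. In D2 +Ku70 the pair of 3 bait and 12 prey bases had the highest mean, with 4.22%, 10.3% and 8.33%, which rest on 18, 4 and 1 reads.

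Only 2 pairs of ends were found in all 18 libraries, that of 3 bait and 12 prey bases and that of 11 bait and 18 prey bases. The first had 2 main forms. In Lig4-/- all of it (1.69% of deletions) shared the 2 bases CT, whereas in D1 and D2 most of it shared none (0.928% and 1.41% of deletions, against 0.474% and 0.707% for the form with 2 bases). In D1 +Ku70 the form with 2 bases was again the larger, with 1.16% against 0.660%. The 2 forms are different joints, with 17 bases lost in all for the form with 2 shared bases and 15 for the other. Their proportions differed between these groups.

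**Figure D3:**
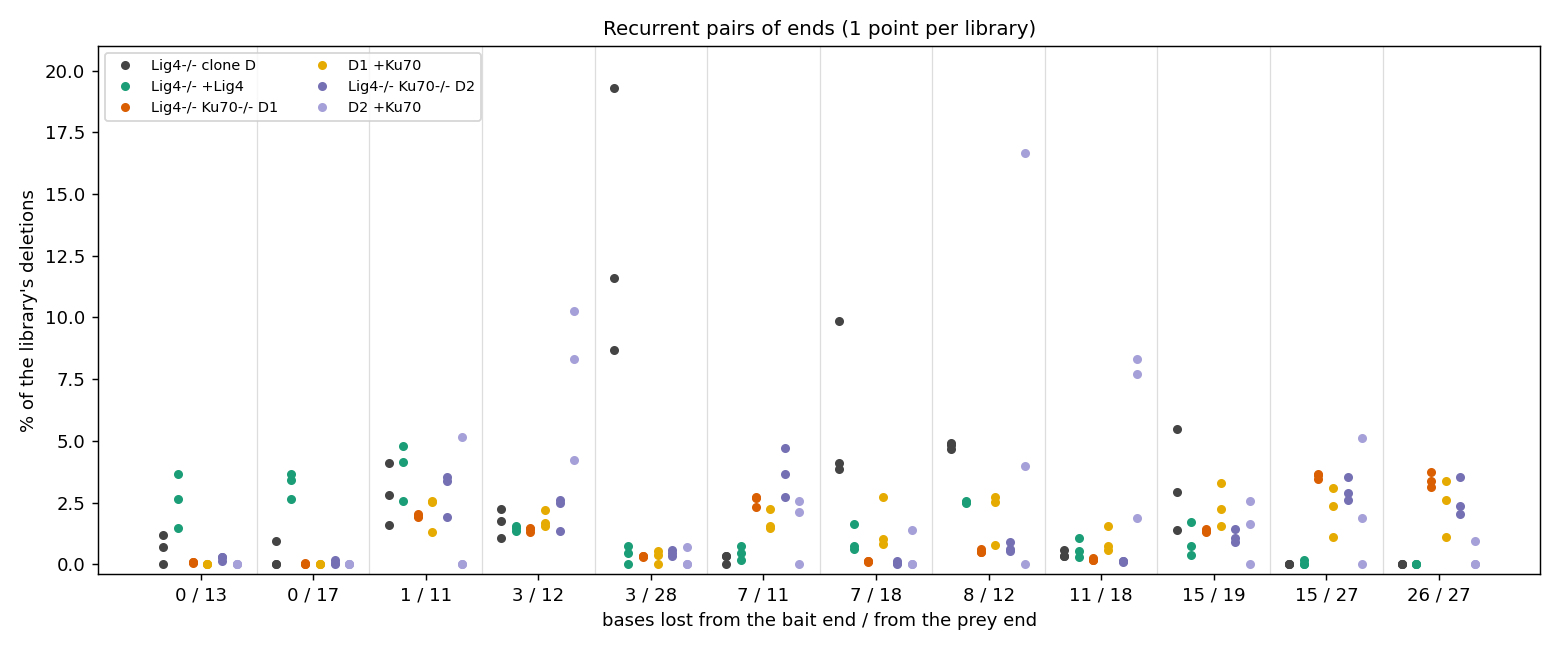
Percent of a library's deletions at each of the 12 named pairs of ends, given as bases lost from the bait end and from the prey end; each point is a library. The pair 3 / 28 reaches 8.68% to 19.3% in Lig4-/- and stays below 1% in every other library, and the pairs 15 / 27 and 26 / 27 are at 0 in Lig4-/-; the highest D2 +Ku70 points come from libraries with 39 and 12 deletions.

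Lig4-/- deletions were more concentrated on few joints than those of +Lig4, D1, D2 and D1 +Ku70. The 10 most frequent pairs of ends of a library held 52.6%, 42.1% and 43.7% of deletions in Lig4-/-, 24.2% to 25.9% in +Lig4, 20.0% to 20.5% in D1, 19.8% to 23.8% in D2 and 19.6% to 24.5% in D1 +Ku70. The D2 +Ku70 libraries had 28.3%, 56.4% and 100%, the last 2 from 39 and 12 deletions. In all, 2094 distinct pairs of ends were seen, and the 989 found in only 1 library accounted for 1186 of the 46424 deletions. The number of deletions moves with these shares: +Lig4 and D1 +Ku70 libraries held 355 to 674, against 171 to 311 in Lig4-/-, and its part in the result was not tested.

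Microhomology was most frequent in Lig4-/-. Deletions whose bait and prey alignments shared at least 2 bases made up 83.0%, 72.0% and 75.4% in Lig4-/-. They made up 28.3%, 22.7% and 18.4% in +Lig4, 25.4%, 24.9% and 24.3% in D1 and 22.7%, 23.3% and 22.6% in D2. The difference from Lig4-/- was -51.9 points in D1 and -53.7 points in +Lig4, each with an exact permutation p of 0.1 (adjusted 0.136) and no overlap. D1 and D2 did not separate from +Lig4 by this share (differences of 1.74 and -0.26 points, exact permutation p = 0.7 and 0.9), and their ranges overlapped.

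The other joints differed between them. In D1 and D2 joints without shared or inserted bases made up 44.7% to 46.0% of deletions in each library, and joints sharing 1 base another 27.2% to 28.9%. In +Lig4 these were 18.2% to 22.1% and 9.05% to 11.2%, and 44.4% to 48.3% carried inserted bases. With a minimum of 1 shared base the D1 share exceeded that of +Lig4 by 19.2 points (exact permutation p = 0.1) and the D2 share by 17.6 points. In number of reads, joints without shared or inserted bases came to 7, 14 and 15 in Lig4-/- and to 4057, 3719 and 3876 in D1, whereas joints with at least 2 shared bases came to 142, 224 and 214 and to 2297, 2058 and 2108. Both kinds were more numerous in D1, the first far more so.

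With Ku70 added back, the microhomology share was higher in both clones. It was 48.6%, 35.2% and 34.1% in D1 +Ku70 and 45.2%, 61.5% and 66.7% in D2 +Ku70, the last 2 from 39 and 12 deletions. All 6 libraries lay above those of the same clone without Ku70, by 14.5 points in D1 and 34.9 points in D2 (mean 24.7, exact permutation p = 0.005, adjusted 0.0817). Within sequencing runs the mean was 23.1 (exact permutation p = 0.00833), and without the 2 small libraries it was 18.4 (exact permutation p = 0.0125). The difference between the clones, -20.5 points, had an exact permutation p of 0.265. Within D2 the share was higher with Ku70 by 22.5 points in the run of replicate 1 and by 41.1 points in the run of replicates 2 and 3. Replicate 1 of D1 +Ku70 stood above replicates 2 and 3, and all 3 lay below the Lig4-/- range.

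**Figure D4:**
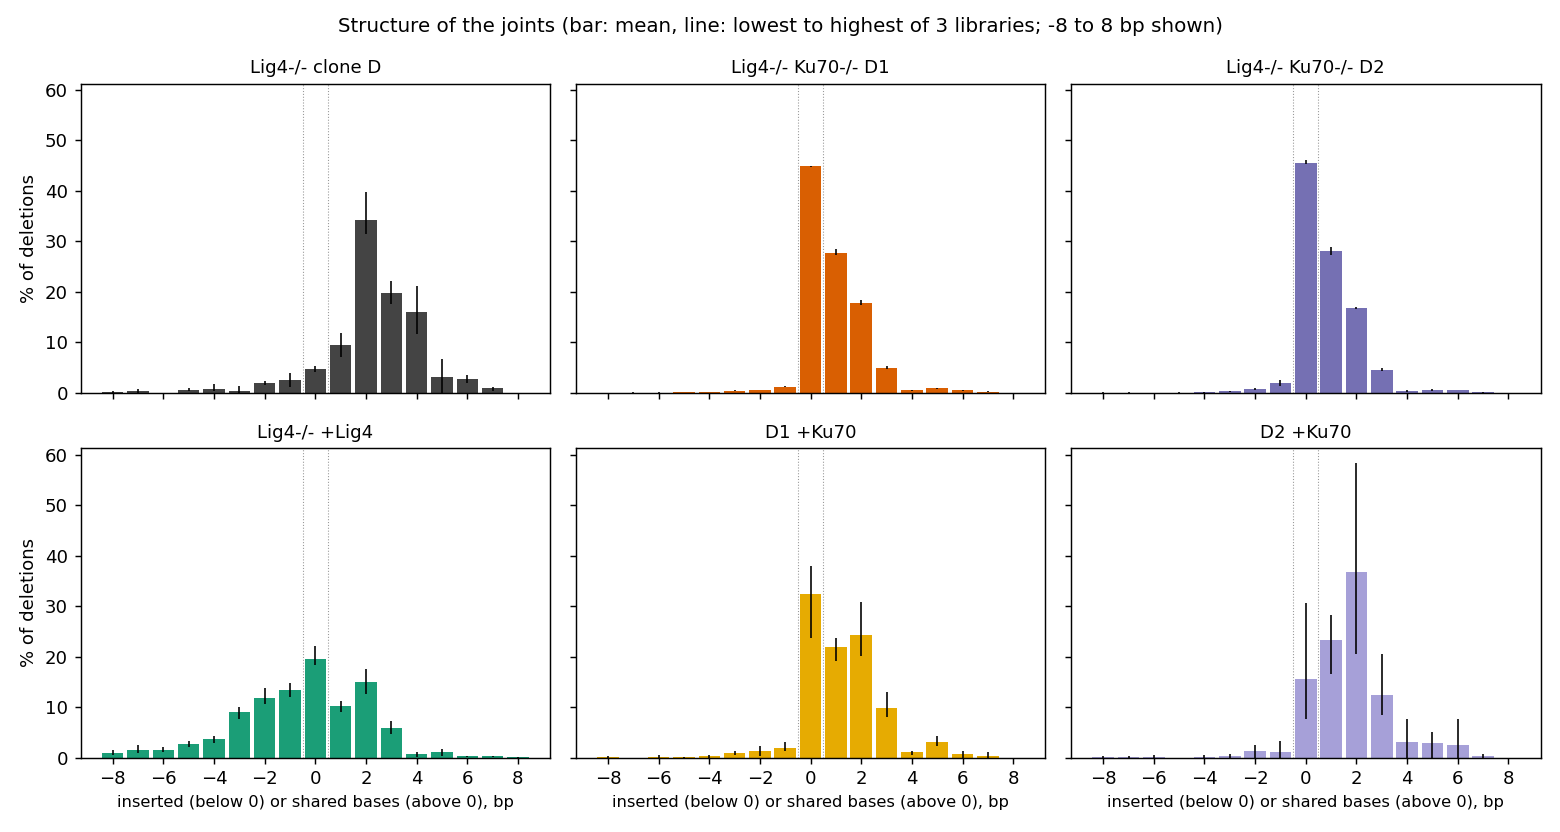
Percent of deletions by joint structure, from 8 inserted bases (left of 0) through direct joints (0) to 8 shared bases (right of 0); bars are group means and lines run from the lowest to the highest of 3 libraries. Lig4-/- peaks at 2 shared bases, D1 and D2 at direct joints (44.8% and 45.6%), and +Lig4 spreads from 3 inserted bases (8.99%) to 2 shared bases (15%).

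Most joints that the letters at the break allow share no base. Among the 2770 different joints without insertions that these sequences allow for a bait loss of 0 to 40 and a prey loss of 11 to 100 bases, 76.7% share no base, 16% share 1 and 7.33% share 2 or more. As distinct joints in this window, with every joint of a library counted once, 55.6% to 77.4% of those used in Lig4-/- shared 2 or more bases. In D1 and D2 the figure was 14.1% to 15.5%, and in +Lig4 25.8% to 30.9%. D1 libraries used 30% to 31% of all 2770 joints and Lig4-/- libraries 1.12% to 1.95%, which moves with their number of deletions. The microhomology share of distinct joints may move with it too, and this was not tested. In D2 +Ku70 that share was 25% in the library with 156 distinct joints. It was 55% and 70% in those with 20 and 10.

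Only 13 of the possible joints share 4 or more bases. The TCCT joint was the most used in Lig4-/-, at 13.1% of deletions in this exact form. The longest match, 6 bases, had the next place with 1.80% (1.29% to 2.34%) of Lig4-/- deletions, followed by a match of 5 bases with 1.42% (0% to 3.22%). In D1 they made up 0.0186% and 0.364%. The match of 5 bases did not set Lig4-/- apart: 1 of its libraries held none, the D1 range was 0.276% to 0.416%, and D1 +Ku70 had 1.61% (0.845% to 2.35%). The match of 6 bases did not set Lig4-/- apart from D2 +Ku70, which had 2.56% (0% to 7.69%). Both matches are shown as the most used in Lig4-/- after TCCT.
bait 1 prey 70 shared 6: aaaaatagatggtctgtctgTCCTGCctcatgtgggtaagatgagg
bait 10 prey 31 shared 5: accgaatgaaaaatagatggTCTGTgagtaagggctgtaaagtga
Over deletions of all lengths, 4 or more shared bases were found in 44, 65 and 61 Lig4-/- deletions (25.7%, 20.9% and 21.5%), in 182, 187 and 185 of D1 (2.01% to 2.26%) and in 24, 14 and 6 of +Lig4 (1.10% to 3.56%). The aligned shared bases matched the letters on both sides of the break in 98.6% of the 23762 deletions checked.

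Among the longest deletions the microhomology shares lay closer together. Over 1 kb, 70 of 102 deletions in Lig4-/-, 14 of 26 in +Lig4, 8 of 13 in D1 and 21 of 33 in D1 +Ku70 shared 2 or more bases, or 68.6%, 53.8%, 61.5% and 63.6%. Without joints found in more than 1 library these were 39 of 67, 11 of 23, 7 of 12 and 20 of 32, or 58.2%, 47.8%, 58.3% and 62.5%. At 11 to 30 bp the mean shares were 79.3%, 20.4%, 24.3% and 36.6%. The gap between Lig4-/- and D1 was thus widest at 11 to 30 bp of these 3 classes. It was still wide up to 1000 bp and small, on few deletions, only over 1 kb. The difference between length classes was not tested.

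Inserted bases were most frequent in +Lig4. Deletions with at least 1 inserted base made up 44.4%, 48.3% and 48.3% in +Lig4, 5.85%, 11.6% and 9.86% in Lig4-/-, 2.48%, 2.81% and 2.38% in D1 and 4.5%, 2.36% and 3.27% in D2. The +Lig4 share exceeded that of Lig4-/- by 37.9 points (exact permutation p = 0.1, adjusted 0.136), without overlap. The difference of D1 from Lig4-/- was -6.54 points (exact permutation p = 0.1), also without overlap; with each distinct junction counted once it was -1.93 (exact permutation p = 0.4). With Ku70 added back the shares were 8.41%, 3.92% and 6.48% in D1, above all D1 libraries, and 7.49%, 2.56% and 0% in D2, which overlapped D2 (mean difference 1.85 points, exact permutation p = 0.21). Without the 2 small libraries it was 3.92 (exact permutation p = 0.0125).

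The inserted bases differed too. Most insertions were short, with a median of 2 bases in +Lig4 and D1, 2.5 in Lig4-/- and 1 in D2. Over insertions of 1 to 9 bases, G and C made up 61.2% of the 2396 inserted bases in +Lig4. They made up 37.7% of 1345 in D1, 29.9% of 913 in D2 and 42.3% of 156 in Lig4-/-. These bases were pooled over all reads of a group, recurrent joints included, so the values carry no spread between libraries. Insertions of 1 base in +Lig4 were spread over the letters, with 73 T, 65 G, 59 C and 54 A. In D1 208 of 310 and in D2 246 of 299 were T, from 61% to 77.2% and from 72.3% to 97.6% across libraries. Of these, the joint that kept every bait base and lost 12 prey bases held 76 in D1 and 102 in D2. The one that lost 11 held 56 and 73, so the excess of T rests largely on 2 pairs of ends. In the break window the base after a whole bait end is also a T. At these joints an inserted T and 1 further bait base therefore cannot be told apart. They are counted as insertions throughout, also in the insertion shares and the base composition above.

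Insertions of 10 or more bases were few: 17 in Lig4-/-, 24 in +Lig4, 27 in D1, 14 in D2, 17 in D1 +Ku70 and 3 in D2 +Ku70. Of the 17 in Lig4-/-, 5 were copies, in inverted orientation, of sequence from 68 bases before to 200 bases beyond the break. These 5 held 3 distinct inserts. Such copies were also 3 of 24 in +Lig4 and 2 of 27 in D1, each a single distinct insert, 1 of 17 in D1 +Ku70 and 0 in D2 and D2 +Ku70. The insert below was read 2 times in 1 Lig4-/- library, matches the minus strand at chr6:41554948-41554965 on the bait side, and is in capitals throughout.
inverted insert: CAGACCATCTATTTTTCA

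All but 20 of the 46424 prey ends lay within the RefSeq span of Tcrb (chr6:40891296-41558371, GRCm38.p6, the coordinates of mm10), the T cell receptor beta locus, in the stretch after Trbc2 (chr6:41546730-41548181). Only 20 ended within Trbv31 (chr6:41557693-41558371), a variable segment that begins 2716 bases beyond the break and lies in inverted orientation, and 8 of those were in Lig4-/-. The other 20 lay beyond the end of both Trbv31 and Tcrb, so those deletions passed through the segment, and 0 reached the next annotated genes of the window, such as Ephb6, an Eph receptor gene (chr6:41603834-41620509).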

How the data were processed

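Junctions were measured by JoinT-seq, which reads outward from a primed (bait) site across the break; the deposited lists hold 1 line per joined read, and 600000 raw reads per library were used for normalization, per the labels. Bowtie2 and mm10 are named in the submitters' processing notes, without a role. The deposited alignment ends of bait and prey are positions (unit other), from which losses, shared bases and inserted bases were computed. Deletions were counted per 100000 raw reads, with 0.5 added before log2. A shared stretch of at least 2 bases was called microhomology.

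Python 3.11.15, pandas 2.3.3, numpy 2.4.6, scipy 1.17.1 and matplotlib 3.10.9 were used. Group means were compared by two-sided exact permutation of libraries, with Benjamini-Hochberg adjustment over 49 tests; the method was tested on simulated data. Named pairs are each group's 3 most frequent by mean share and any in all 18 libraries. The deletions and lists were chosen with earlier results of these data known. Alternatives were the length bounds, distinct junctions or fragments, minimum lengths of shared, inserted and lost bases, leaving out the most frequent pair, runs, the replicate block and leaving out libraries. Of the 18 replicate pairs, all 3 of +Lig4 and replicates 1 and 3 of D2 +Ku70 did not differ beyond sampling noise over junctions. Replicate 3 of D2 +Ku70 held few deletions. Replicates 2 and 3 of D2 +Ku70 could not be compared, as too few reads fell on any junction (0 degrees of freedom). No replicate pair shared a read name, and all libraries were kept. Gene positions are from RefSeq GRCm38.p6.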

Additional observations from a re-analysis of the deposited data

How the results depend on the processing

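Of 791 alternatives for the 49 comparisons, 746 kept the direction and 45 reversed, with the cause not tested. Among comparisons with Ku70 added, 6 lost the raw 0.05 threshold and 9 passed it; in the others no p below 0.1 is possible with 3 libraries a group, so the threshold says nothing of stability there. Abundance over 100 bp or over 1 kb, counts by distinct fragment or by joints of 1 library, shared bases counted as lost from the bait, the share over 1 kb without recurrent joints, and values without libraries under 50 deletions were alternatives chosen after seeing the data. Limits are set by depth: 2 D2 +Ku70 libraries held 39 and 12 deletions, and genotype and run cannot be told apart where clones D1 or D2 are set against clone D.

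Counting only deletions over 1 kb, the log2 abundance differences were -1.86 (+Lig4 against Lig4-/-), -3.25 (D1 against Lig4-/-), -4.96 (D2 against Lig4-/-), 1.27 (added Ku70), -1.39 (D1 against +Lig4) and -3.10 (D2 against +Lig4). With joints over 1 kb of 1 library only they were -1.21, -2.49, -4.27, 1.34, -1.28 and -3.06. The D2 values rest on the 0.5 added, since 2 D2 libraries held no deletion over 1 kb, as does the D2 side of the added Ku70 values. Over 100 bp they were -1.12, -0.50, -1.39, -1.43 and, for D2 against +Lig4, -0.27. Length differences on the log2 scale without the most frequent pair of ends were 0.24 (D1 against Lig4-/-), 0.16 (D2 against Lig4-/-) and 0.30 (Ku70 difference between clones). By mean log2 length they were 0.37 (added Ku70), -0.0012 (between clones) and -0.0300 (D2 against +Lig4).

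With a lower bound of 31 bp the share of the library differed by -7.89 points (D1 against Lig4-/-) and 0.147 (added Ku70), and log2 length by 0.33 (added Ku70), -0.047 (between clones), -0.18 (D1 against +Lig4) and -0.20 (D2 against +Lig4). Under that bound bait-end loss differed by -1.51 points (added Ku70), microhomology by -8.46 (D1 against +Lig4) and insertions by 5.63 (added Ku70). With each distinct junction counted once, the share of the library differed by -18.4 points (D1 against Lig4-/-) and -10.2 (added Ku70), length by -0.22 (added Ku70), microhomology by -1.77 (D1 against +Lig4) and insertions by -3.66 (added Ku70). Microhomology differed by -0.988 points with a minimum of 3 bases (D1 against +Lig4), and by 17.6 with a minimum of 1 base and 1.99 without the most frequent pair (D2 against +Lig4).

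A bait-loss minimum of 6 bases gave -2.99 points (added Ku70) and 1.38 (between clones), and a fit within runs gave -2.39 (between clones). Without libraries under 50 deletions the values were -0.0384 points for bait-end loss and 3.92 for insertions (added Ku70). Between clones they were -0.91 (log2 abundance), 2.25 points (share over 1 kb) and -0.403 points (insertions). With over 100 bp in place of over 1 kb, the clones differed by 1.87 points.

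Leaving out a library in turn gave ranges of 1.46 to 4.67 points for the share over 1 kb (added Ku70) and, between clones, of -3.92 to 2.49 for that share, -3.56 to -2.13 for bait-end loss, 2.06 to 5.81 for insertions and 0.17 to 0.43 for log2 length. For microhomology it gave -0.637 to 4.34 (D1 against +Lig4) and -2.63 to 2.34 (D2 against +Lig4). With the replicate number as a block, the share over 1 kb with added Ku70 was 3.56 points with an exact permutation p of 0.0625. Whether the numbers pair the samples is not known. In D2 they went with the sequencing run. Deviations of same-numbered libraries from their group means correlated from -0.259 to 0.193, which cannot settle whether the samples were paired.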
